A study of Drosophila melanogaster with 12 samples.

Results

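The genes described here are 35 Drosophila melanogaster genes of the cell cycle and of DNA replication, a list of symbols chosen for their function, among 13922 protein-coding genes on the chromosome arms. All 35 matched the gene table by symbol. They fall into 7 roles: 5 G1 and S phase cyclins and kinases, 4 genes of the E2F and retinoblastoma system, 4 inhibitor and checkpoint genes, 6 genes of origin recognition and licensing, 6 genes of the replicative helicase and sliding clamp, 8 mitotic cyclins, kinases and their phosphatase, and 2 activators of the anaphase-promoting complex. By arm, 10 lie on 2R, 9 on 3R, 7 on 2L, 5 on X and 4 on 3L.

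The cell cycle is driven by cyclins, which activate cyclin-dependent kinases. E2F factors switch on genes for S phase and are held back by retinoblastoma proteins, and the origin recognition complex with Cdt1 loads the Mcm helicase onto origins before replication. Mitotic cyclins are later destroyed by the anaphase-promoting complex. Most of these genes are used by every dividing cell, and in Drosophila such genes often sit close to neighbouring genes. CP190 is a zinc-finger protein of chromatin insulators that is frequently found near gene starts. CLAMP, also with zinc fingers, recognises GA repeats in DNA.

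Binding of both proteins was mapped by ChIP-seq in Kc167 cells, an embryonic cell line of female origin. All cells were nucleofected, either with no RNA (mock) or with 12 µg of dsRNA against CP190 (dsCP190), and were grown for 6 days. Each of the 4 combinations of antibody and treatment had 2 libraries, and 4 input libraries were left out here. A CLAMP knockdown is named in the series' design text, whereas its title and the treated samples name CP190, and the sample labels were followed. The labels do not say whether replicates were separate cultures, so p-values refer only to these libraries, whose differences may be technical. Kc167 is a single line, and peak lists do not measure expression, so neither the cell identity nor the activity of a gene was checked.

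Peak numbers in the mock lists were 7669 and 7964 for CP190 and 4471 and 4514 for CLAMP. After dsCP190 they were 2047 and 3138 for CP190, and 2468 and 901 for CLAMP. The ratio of mean peak numbers was 0.332 for CP190 and 0.375 for CLAMP, each with p = 0.333 in a two-sided exact permutation test, the lowest value that 2 libraries against 2 can reach. CP190 protein and RNA were not measured here, so the depletion of the target is not checked by these files. Local background at summits shared with mock libraries was 0.519 to 0.888 of the mock value in the CP190 libraries after dsCP190. In the CLAMP libraries it was 0.346 to 0.446. Total reads were not given. Local background thus moved with the treatment, and its part in the differences below was not tested beyond the values given there.

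A gene is termed called in a library when a peak overlaps its body or 1 kb on either side by at least 1 bp. A gene called in both mock libraries is retained when both dsCP190 libraries also have a call, and no longer called when neither has. Fold enrichment is the authors' value of a peak over its local background, and the strongest peak in the window stands for the gene. Values are given for replicates 1 and 2 in that order, mock before dsCP190.

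CP190 was called at nearly all of these genes in mock cells, 34 of 35 (97.1%), against 61.6% of the 13887 other protein-coding genes. The exception was Cdk1, the mitotic kinase, with a peak of fold 3.45 in mock replicate 2 only. Of the 34 genes, 14 were retained, among them stg, CycB, E2f1 and fzr. Another 10 were called in 1 dsCP190 library, and 10 in none. Among all other protein-coding genes these shares were 18.4%, 14.6% and 28.6%, so the share no longer called, 28.6% of the 35, was at the background. As a share of genes called in mock cells, 41.2% were retained, against 29.8% of other genes, and 29.4% were no longer called, against 46.5%. No CP190 call was gained, and among other genes 0.0576% gained one. These shares were not tested against each other, since the list was drawn up with results of these data known and neighbouring genes can share a peak.

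The windows of these genes had a median length of 4884 bp, against 4160 bp for the others. Weighting the other genes to the same mix of window lengths raised their share with CP190 from 61.6% to 68.5%. The other genes include those of every tissue, and how many are active in Kc167 cells was not measured. Keeping each CP190 list to 2047 peaks, the length of the shortest, left 13 genes called in both mock libraries, against 20.9% of all other genes. All 13 were then retained, against 72.1% of the 2898 other genes called under that setting. Under a stricter limit, a −log10 q of 10, the number no longer called was 17 of 33 (51.5%), against 64% of other genes called. Without dsCP190 replicate 1 the retained count was 23 of 35, against 31.7% of all other genes. Without dsCP190 replicate 2 the count no longer called was 19 of 35, against 42% of all other genes. These are shares of all genes, not of those called in mock cells. With either library left out, 34 of 35 and 61.6% were called in both mock libraries, and the shares carry that difference. In each case 1 library decided in place of 2.

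**Figure D1:**
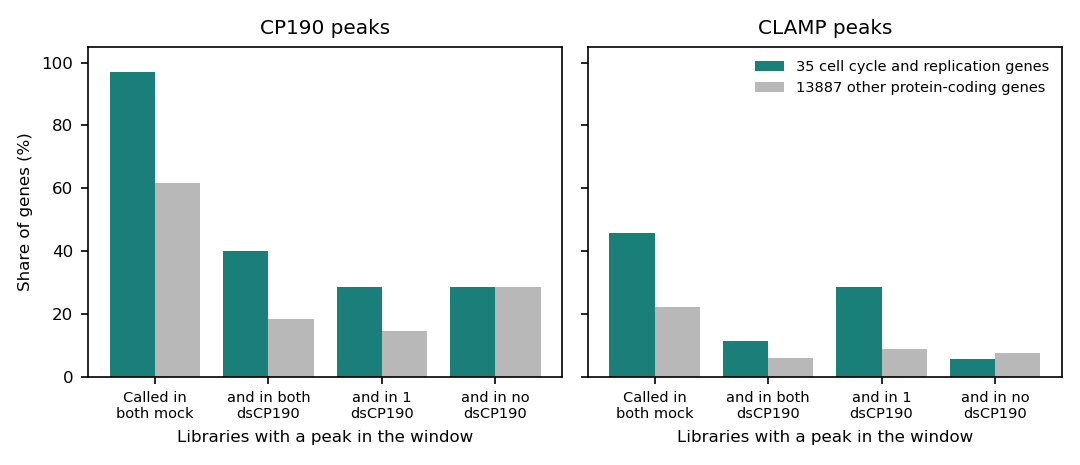
Share of genes, in percent, with a CP190 peak (left) or a CLAMP peak (right), by the libraries that had the peak; coloured bars are the 35 cell cycle and replication genes and grey bars the 13887 others. For CP190 the coloured bars stand at 97.1% against 61.6% for mock cells and at 40% against 18.4% for all 4 libraries, while both bars stand at 28.6% for genes with no call after dsCP190.

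Among the G1 and S phase genes, all 5 had CP190 in mock cells and 2 were retained. The kinase partner of Cyclin D, Cdk4, had folds of 23.5 and 17.4 in mock and 6.82 and 14.8 after dsCP190. At CycG, a G-type cyclin, they were 10.8 and 11.4 in mock and 3.39 and 2.89 after dsCP190. Both dsCP190 values lay below both mock values at each gene. The CycG values are not all of 1 place: the strongest peak was 116 bp from an end of RpL6, a ribosomal protein gene, in 3 libraries, and 19 bp from an end of Med, a Smad gene, in dsCP190 replicate 2. CycD, the G1 cyclin, had 9.03 and 10.9 in mock and no peak after dsCP190, and Cdk2, the S phase kinase, with 5.56 and 6.92, also had none. CycE, the partner of Cdk2, stood between these, with 7.87 and 10.1 in mock and 3.20 in dsCP190 replicate 2 alone.

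In the E2F system 3 of 4 genes were retained. E2f1, the activating E2F, had 28.5 and 21.5 in mock and 13.8 and 22.2 after dsCP190, and it was the 1 retained gene whose groups overlapped. This strongest peak is not clearly that of E2f1, because its summit lies 191 bp from an end of InR, the insulin receptor gene, and 792 bp outside E2f1. Within E2f1, a region 6389 bp from the nearer end had 19.3 and 17.3 in mock and 3.63 and 8.79 after dsCP190, and there the groups did not overlap. Dp, the partner of both E2F proteins, had 15.0 and 14.2 in mock and 3.90 and 7.67 after dsCP190. Rbf, the retinoblastoma protein, had 16.1 and 15.0 in mock and 4.43 and 5.19 after dsCP190, with a summit 32 bp from an end of its neighbour CG13359. E2f2, the repressing E2F, carried 2 regions, 1 at each end of the gene, and had neither after dsCP190. Its strongest peak, with 10.6 and 10.4 in mock, made it the highest of the genes no longer called by percentile, and its summit was 8 bp from an end of Mpp6.

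None of the 4 inhibitor and checkpoint genes was retained. BubR1, a kinase of the spindle checkpoint, had 10.9 and 7.04 in mock and no peak after dsCP190, and its strongest summit lay 1287 bp outside the gene, nearer to CG7881. For dap, the cyclin-dependent kinase inhibitor dacapo, weak peaks of 3.07 and 2.31 lay at different places in the mock libraries and were absent after dsCP190. Myt1, which inhibits Cdk1, and grp, the Drosophila Chk1 kinase, were called in dsCP190 replicate 2 only, at 2.45 and 2.46.

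**Figure D2:**
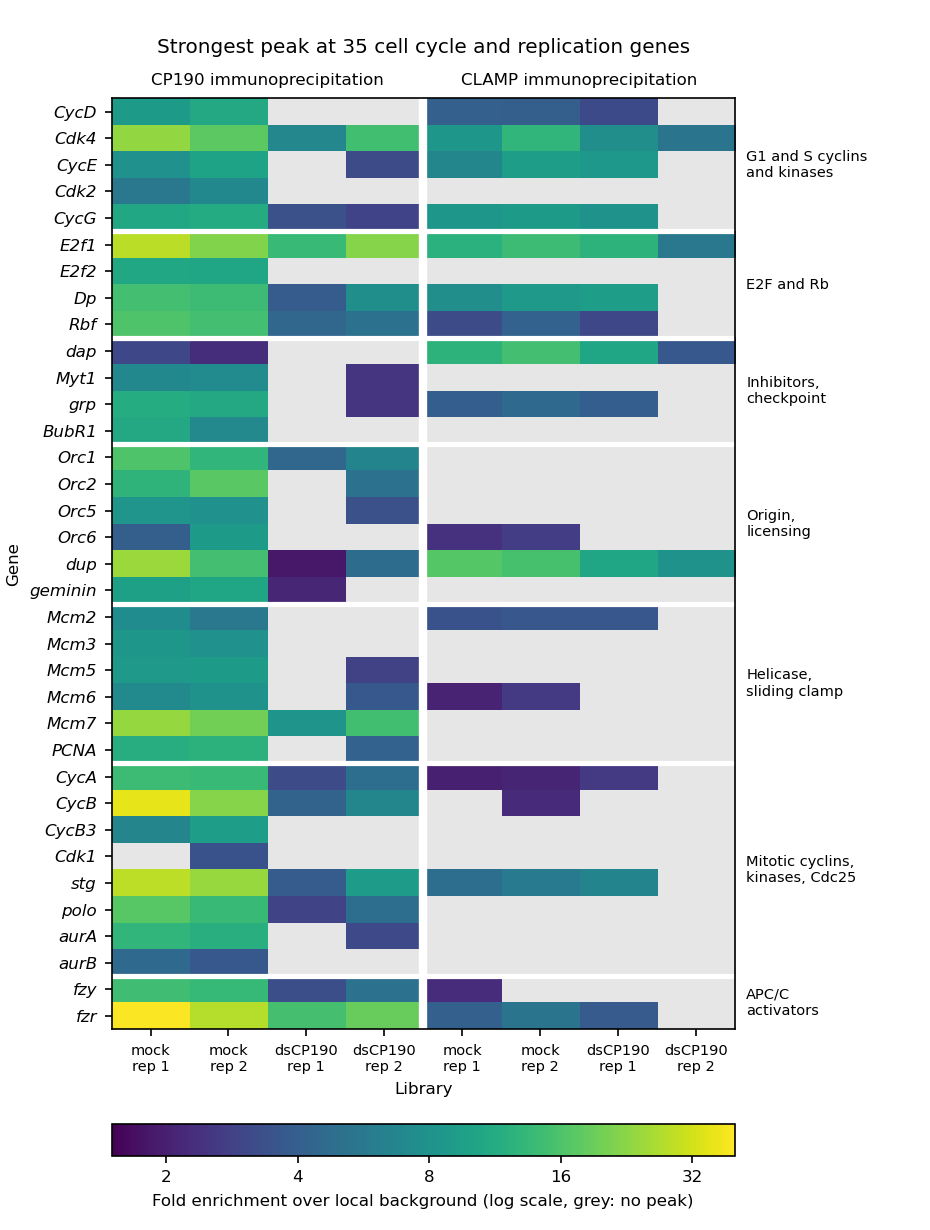
Fold enrichment over local background of the strongest CP190 or CLAMP peak at each of the 35 genes (rows, by role) in each of the 8 libraries (columns), on a log colour scale, with grey where no peak was called. CP190 peaks fill the mock columns except for Cdk1 in replicate 1, whereas the dsCP190 columns hold 15 and 23 genes and the CLAMP dsCP190 columns 14 and 4.

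Origin recognition and licensing genes all had CP190 in mock cells, 6 of 6, and 2 were retained. Orc1, a subunit of the origin recognition complex, had 16.3 and 13.0 in mock and 4.45 and 6.58 after dsCP190. The strongest peak of dup, the Drosophila Cdt1, had 24.3 and 15.0 in mock and 1.87 and 4.76 after dsCP190. In dsCP190 replicate 1 this peak rested on 42 fragments at its summit over a background of 22.1, and in mock replicate 1 on 290 over 11.0. In mock replicate 2 there were 361 fragments over 23.2. Summit fragments in dsCP190 replicate 1 were thus below both mock libraries, while its background lay between theirs. Orc2 and Orc5 were called after dsCP190 in replicate 2 only, at 5.16 and 3.37. For geminin, the inhibitor of Cdt1, the call was in replicate 1 only, at 2.14, and it was the 1 such gene among the 10 with a single dsCP190 call. That is near the 8.62% of the 2029 other genes with a single dsCP190 call. Orc6 was called in neither.

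Of the 6 helicase and clamp genes, all had CP190 in mock cells and 1 was retained. Mcm7 had 23.7 and 19.8 in mock and 8.22 and 14.8 after dsCP190, the highest values of this role in all 4 libraries. Its summit lay 224 bp from an end of Mcm7 and 180 bp from an end of dally, which encodes a cell-surface proteoglycan. At Mcm3 the values were 8.55 and 7.90 in mock with none after dsCP190, and the summit there was 6 bp from an end of Rnp4F. Mcm2 was also called in neither dsCP190 library, while Mcm5, Mcm6 and PCNA, the sliding clamp, were called in replicate 2, at 2.86 to 4.19. The PCNA peak lay 1005 bp outside the gene and 91 bp from an end of RpS18, a ribosomal protein gene.

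Of the 8 mitotic genes, 7 had CP190 in both mock libraries and 4 were retained, CycA, CycB, stg and polo. The mitotic cyclin gene CycB had 35.6 and 22.1 in mock and 4.26 and 6.76 after dsCP190. With background held fixed, the 95% exact Poisson interval was 19.7 to 24.6 in mock replicate 2 and 5.40 to 8.37 in dsCP190 replicate 2. These intervals cover counting error of the summit fragments only. Local background there was 6.28 and 13.6 in mock and 12.6 and 11.4 after dsCP190, and its error was left out. The gene stg, for the Cdc25 phosphatase that triggers mitosis, had folds of 28.8 and 24.1 in mock and 3.88 and 9.14 after dsCP190. CycA, the other mitotic cyclin retained, had 14.2 and 13.7 in mock and 3.16 and 4.90 after dsCP190. For polo, a mitotic kinase, these were 17.0 and 13.7, then 2.94 and 4.90. At none of these 4 genes did the groups overlap. The cyclin CycB3, with 6.67 and 9.34 in mock, and aurB, the kinase of the chromosomal passenger complex, with 4.59 and 3.71, had no peak after dsCP190. The centrosomal kinase aurA was called in replicate 2 only, at 3.09.

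Both activators of the anaphase-promoting complex were retained. At fzr, the Drosophila Cdh1, the values were 39.4 and 27.7 in mock and 15.2 and 18.7 after dsCP190, the highest of all 35 genes in both mock libraries and in dsCP190 replicate 1. At fzy, the Drosophila Cdc20, they were 14.6 and 13.5, then 3.31 and 5.09. Its summit lay 66 bp from an end of cni and 164 bp from an end of fzy.

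Over the 14 retained genes, both dsCP190 folds lay below both mock folds in 13. The same held for 93.5% of the 2550 other genes called in all 4 libraries, so this order was general. Of the 23 genes called in dsCP190 replicate 2, 22 were below both mock values there, against 96.2% of other genes. Median fold over the 14 genes was 20.2 and 15.0 in mock and 4.08 and 6.67 after dsCP190. Retention followed mock strength, measured as the percentile of the strongest peak within its list, averaged over the mock lists. Retained genes stood at percentiles 65.3 to 97.5, genes with 1 dsCP190 call at 45.5 to 76.4, and genes no longer called at 4.47 to 63.3. The weakest retained gene, CycG, thus lay just above the strongest gene no longer called, E2f2. Among other genes these ranges overlapped widely, at 14.1 to 99.96 for retained genes and 0.0191 to 99.4 for genes no longer called. In the strongest quintile of called genes all 6 members were retained, against 79% of the others there. In the next quintile 7 of 10 were, against 52.1%. Weighting the other genes to the same mix of strengths gave a retained share of 33.4% beside the 41.2% of these genes, and a share no longer called of 38.3% beside 29.4%.

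**Figure D3:**
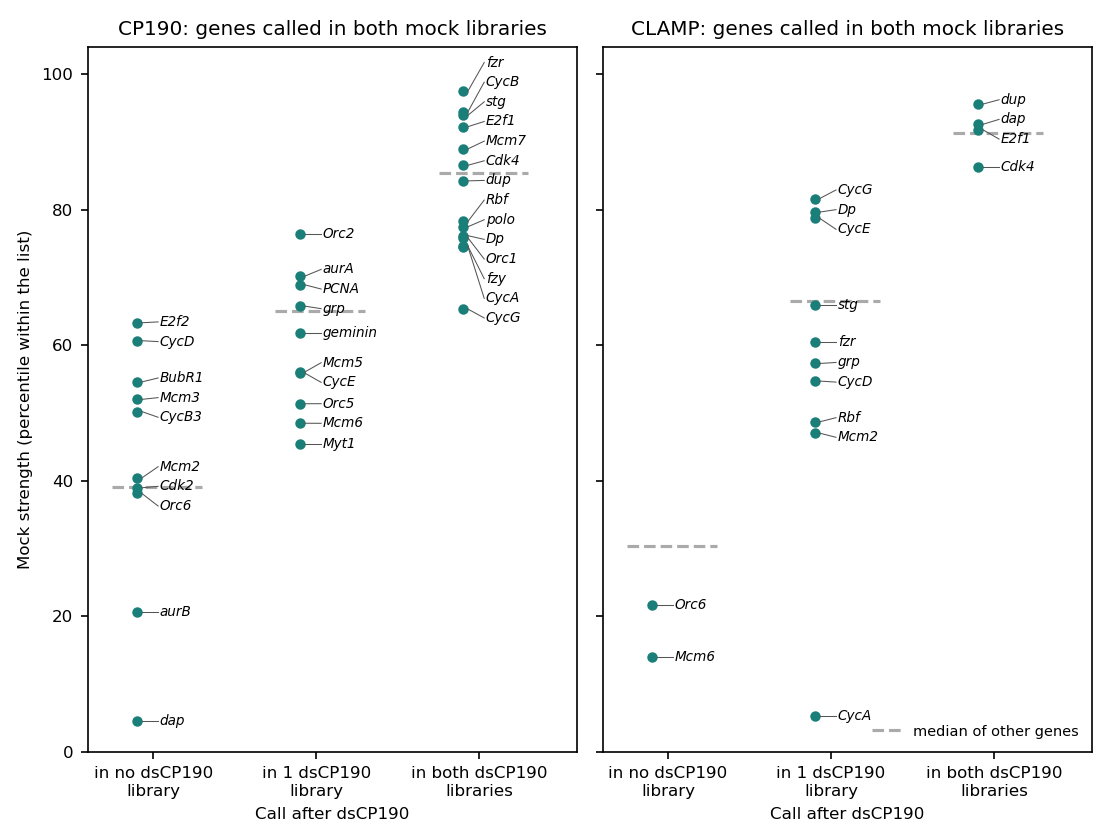
Mock strength of each gene (percentile of its strongest peak within the mock lists, mean of 2) by the number of dsCP190 libraries with a call, for CP190 (left) and CLAMP (right); dashed lines are medians of the other genes with the same outcome. CP190 genes retained in both libraries lie at 65.3 or higher and those no longer called at 63.3 or lower, and the 4 retained CLAMP genes lie at 86.3 or higher. Among other genes (ranges not drawn), retained genes start at 14.1 for CP190 and 44.9 for CLAMP, and genes no longer called for CP190 reach 99.4.

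Merging overlapping peaks of the 4 CP190 libraries gave 51 regions at 33 of these genes that were called in both mock libraries. Of these, 37 had their summit within 500 bp of an end of the gene (72.5%), 5 lay inside it and 9 outside. At other genes 60.6% of such regions lay at an end. In the shares at other genes a region counts once for each gene whose window it overlaps, which gives 12502 in place of distinct regions. Over all 7356 CP190 regions called in both mock libraries, 22.6% were retained and 58.4% no longer called. Of the 37 regions at ends of these genes 15 were retained (40.5%) and 11 no longer called (29.7%), against 24.2% and 53.8% of regions at ends of other genes. Of the 9 outside, 2 were retained and 6 no longer called, against 26.8% and 50.8% at other genes. Another protein-coding gene was in reach of 43 of the 51 regions, and for 21 of the 51 another gene had the nearer end. The region at Mcm2, for example, spans 3R from 8264206 to 8265237 on dm6, with its summit 14 bp from an end of Mcm2 and in reach of RPA1, which encodes a subunit of the single-strand DNA binding protein RPA. The gene table gives no strand, so the start of a gene was not told from its 3' end.

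One CP190 region at Rbf went against the general order. On X from 796368 to 797063, with its summit 285 bp from an end of CG16989 and 314 bp from Rbf, the folds were 2.45 and 2.31 in mock and 3.56 and 3.99 after dsCP190. Of all 1661 CP190 regions called in all 4 libraries, 2 had both dsCP190 folds above both mock folds (0.12%), and 92.8% had both below. Fragments at the summit numbered 48 and 58 in mock and 53 and 38 after dsCP190, over backgrounds of 19.0 and 24.5, then 14.2 and 8.78. Background was thus lower after dsCP190, and its part in the higher folds was not tested. With background held fixed, the 95% exact Poisson intervals of mock replicate 2, 1.77 to 2.98, and of dsCP190 replicate 1, 2.68 to 4.63, overlapped.

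The fold that a call would have needed in the dsCP190 libraries was estimated from the fragment numbers behind the deposited values, taking background as the mock value times the median ratio. At the 31 regions without a call in dsCP190 replicate 1, a fold of 1.86 to 2.38 would have reached the weakest p in that list. At the 20 regions without a call in replicate 2 it was 1.99 to 2.36. Both mock folds were above the needed fold in 31 of 31 and 20 of 20 cases. With counting error of the mock summits alone, the lower 95% bounds of both mock folds were above it in 28 of 31 and 17 of 20. In the remaining 3 regions of each replicate they were not. Counting error of the dsCP190 libraries and of the background was left out. The estimate therefore cannot tell at how many regions a call could be missed at an unchanged fold. Folds under the needed size were not detectable. The part of depth in the missing calls was not tested beyond this estimate. For CLAMP, the 8 regions without a call in replicate 1 needed 2.11 to 2.43, and both mock folds were above that in 7. The 26 without a call in replicate 2 needed 1.97 to 2.71, and both were above in 21. The lower bounds were above it in only 1 of the 8 and 15 of the 26.

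CLAMP was called in both mock libraries at 16 of the 35 genes (45.7%), against 22.3% of other protein-coding genes. Weighting the other genes to the same mix of window lengths raised their share to 25.5%. After dsCP190, 4 genes were retained, Cdk4, E2f1, dap and dup. Another 10 were called in replicate 1 only and 2, Orc6 and Mcm6, in neither. As shares of the 16 these are 25.0%, 62.5% and 12.5%, against 26.3%, 40.1% and 33.6% of other genes with CLAMP in mock cells, so the retained share was near the background. Weighting those other genes to the same mix of mock strengths gave 27.5% retained and 29.1% no longer called. Of all other genes, 5.88% were retained, 8.95% had 1 call and 7.5% had none. The 1 call was in replicate 1 for all 1243 of those other genes too. The counts rest on dsCP190 replicate 2, whose list was the shortest. Without it 14 of the 35 genes were retained, against 14.8% of all other genes. Without replicate 1, 12 of the 35 were no longer called, against 16.4% of all other genes. In both cases 16 of the 35 genes and 22.3% of other genes had CLAMP in both mock libraries. These shares of all genes carry that difference. No CLAMP call was gained, as among other genes (0%). At 17 of the 35 genes no CLAMP peak was called in any of the 4 libraries, among them Mcm7, polo, Orc1, PCNA and Cdk1.

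The licensing gene dup had the strongest CLAMP peak of the 35 genes by mock percentile, with folds of 16.9 and 15.3 in mock and 10.3 and 8.07 after dsCP190. At dap the values were 12.6 and 15.0 in mock and 10.3 and 3.71 after dsCP190. For E2f1 they were 12.2 and 14.3, then 12.6 and 5.6. At Cdk4 they were 8.51 and 13.0, then 7.64 and 5.32. In dsCP190 replicate 2 all 4 genes were below both mock values, as were 95.8% of the other genes called there. In both dsCP190 libraries together 3 of the 4 were below, all but E2f1, against 47.9% of the other genes called in all 4 libraries. For regions in place of genes that share was 46.4%, with 2% higher in both, and no retained region of these genes was higher in both.

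The 10 genes called only in dsCP190 replicate 1 had median folds of 4.09 and 4.96 in mock and 3.92 in that replicate. Among G1 and S phase genes, CycE had 6.75 and 9.35 in mock and 8.60 in dsCP190 replicate 1. The values of CycG were 8.57, 8.94 and 7.96, and those of CycD 4.08, 4.06 and 3.14. Of these 3, CycE was inside its mock range and the others below it. In the E2F system Dp had 7.60 and 8.91 in mock and 9.48 in dsCP190 replicate 1, above both. Rbf had 3.20 and 4.19 in mock and 3.04 in dsCP190 replicate 1.

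The remaining 5 of the 10 lay in other roles. At stg the CLAMP folds were 4.90 and 5.75 in mock and 6.61 in dsCP190 replicate 1, and at fzr 4.11, 5.29 and 3.83. The fzr value of mock replicate 2 is from another region than the other values. That region had 3.82 in mock replicate 1 and 2.83 in dsCP190 replicate 1. At grp the CLAMP folds were 4.03, 4.62 and 4.02, at Mcm2 3.44, 3.65 and 3.67, and at CycA 1.99, 2.1 and 2.63. For Orc6, with 2.40 and 2.71, and Mcm6, with 2.06 and 2.62, calls were near the limit in mock cells, and the Mcm6 peaks lay on different sides of the gene. Of the 14 genes called in dsCP190 replicate 1, 4 had a fold above both mock values, 2 between them and 8 below, against 56.7% below among other genes. For CP190 all 15 genes called in that replicate were below both, against 99.4% of other genes.

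A smaller share of CLAMP than of CP190 regions lay at the ends of these genes. Of 30 CLAMP regions called in both mock libraries at 15 genes, 12 had their summit at an end (40%) and 17 inside the gene. The shares were 35% and 44.4% at other genes, again with a region counted once for each gene. E2f1 alone carried 8 of the 30, and the strongest, on 3R from 21650459 to 21652214, lay inside the gene, 9223 bp from its nearer end. The CLAMP region of dap, on 2R from 9711370 to 9713113, had its summit 86 bp from an end of the gene, with no other gene in reach.

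**Figure D4:**
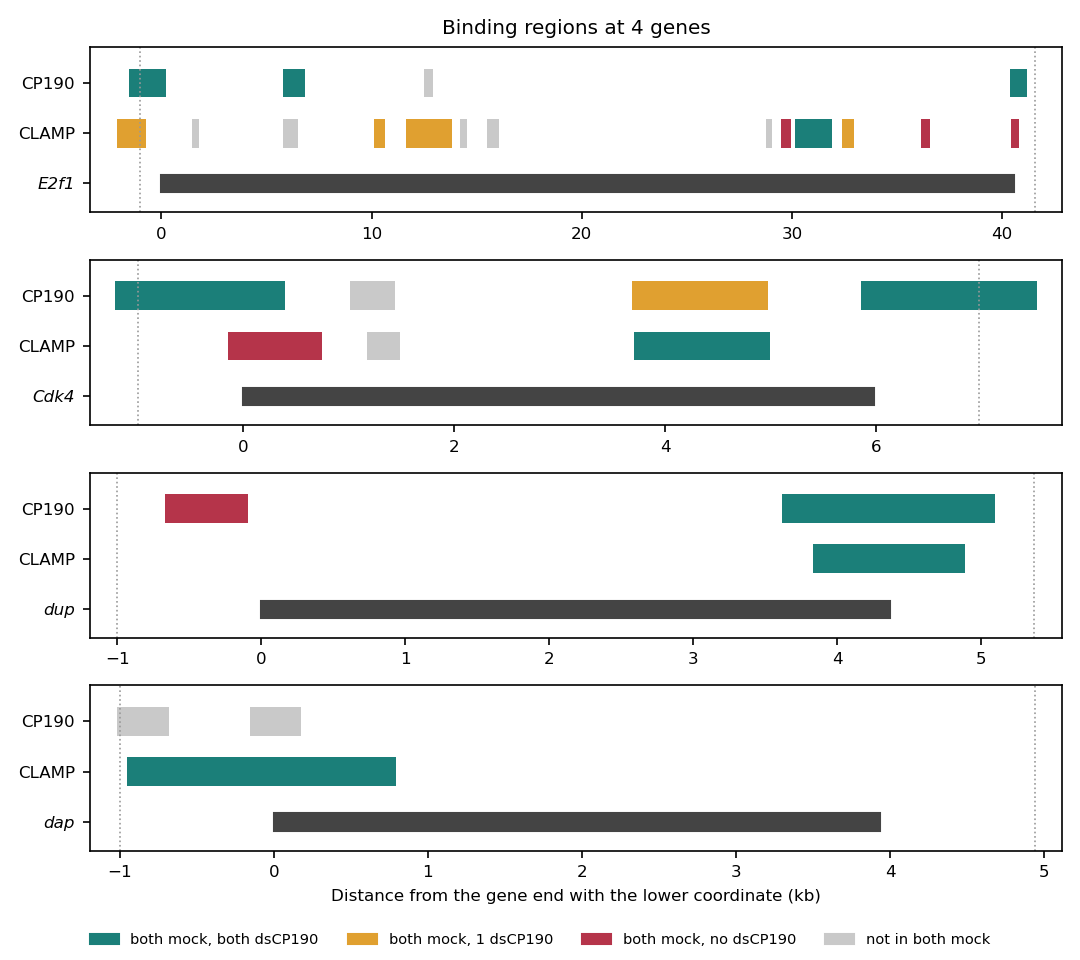
Binding regions of CP190 and CLAMP at E2f1, Cdk4, dup and dap, with distance in kb from the gene end with the lower coordinate; the dark bar is the gene, dotted lines mark 1 kb beyond its ends, and colours give the libraries with a call. At dup 1 region of each protein lies at the same end and is called in all 4 libraries, whereas at dap the CLAMP region is called in all 4 and the CP190 peaks were not called in both mock libraries at the same place.

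All 16 genes with CLAMP in mock cells also had CP190 there, against 88.3% of the 3101 other genes with CLAMP. Over the whole list the share with both proteins was 45.7%, against 19.7% of other genes. Presence at a gene did not always mean presence at a place. Of the 30 CLAMP regions 16 overlapped a CP190 region (53.3%), against 42.3% of all 3654 CLAMP regions, and in 17 overlapping pairs the median distance between summits was 322 bp, against 225 bp over all pairs. In 5 pairs, at Cdk4, Rbf, Orc6, dup and fzr, summits were within 100 bp (29.4%), near the 34% of all pairs.

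At dup the shared place spans 2R from 15380452 to 15381505, with summits 85 bp apart, and both proteins were called in all 4 libraries. It was the 1 place among the 17 with this pattern. At the inner region of Cdk4, with summits 88 bp apart, CLAMP was called in all 4 libraries while CP190, with 11.2 and 11.6 in mock, was called at 4.21 in dsCP190 replicate 2 only. At the lower-coordinate end of fzr the reverse held: CP190 was called in all 4 libraries, and CLAMP, with 2.99 and 2.33 in mock, in neither dsCP190 library.

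CLAMP calls after dsCP190 were counted where CP190 had been present and where it had not. Of 16 CLAMP regions that overlapped CP190, 10 were called in dsCP190 replicate 1 and 2 in replicate 2. Of 14 without CP190, 12 and 2 were called. These 14 came from only 6 genes, with 6 at E2f1 and 3 at CycG, so they are not separate members. Over all CLAMP regions, 62.9% with CP190 and 57.7% without were called in replicate 1, and 22.8% and 21.5% in replicate 2, so the order of the members in replicate 1 was not that of all regions. The 6 regions with CP190 and without a call in either dsCP190 library had mock folds of at most 3.46, so strength moved with this difference and its part was not tested. In the other direction, CP190 was retained at 9 of the 16 genes with CLAMP (56.2%) and at 5 of the 18 without (27.8%). Among other genes these shares were 48.2% and 21.2%. The list thus showed the order of the other genes, which was not tested here.

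Another 91 genes were listed as replication factors, as mitotic and checkpoint genes, or as cyclin, kinase and G1 regulator genes. Of these, 89 matched the gene table, and CP190 was called in both mock libraries at 81 (91.0%), against the 61.6% of all other genes. Of the 81, 23 were retained (28.4%), 21 had 1 call and 37 had none (45.7%), close to the 29.8%, 23.7% and 46.5% of other genes. Further replication factors had CP190 at 28 of 31 genes and retained 6, namely Cdc6, Cdc7, chif and Gnf1 in alphabetical order, with Orc4 and Top2. At Cdc6, a loader of the Mcm helicase, the folds were 17.6 and 17.5 in mock and 2.80 and 5.52 after dsCP190. At Gnf1, a subunit of the clamp loader, they were 29.0 and 24.9, then 4.18 and 8.26. Both genes showed lower folds after dsCP190 with no overlap. Neighbouring genes can share a peak here too: RPA1 had the mock folds of Mcm2 for both proteins. SAK and Cdk12, of the other lists, had the same mock CP190 folds, 9.21 and 12.1. Only Cdk12 was called after dsCP190, at 1.97 and 2.86.

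Further mitotic and checkpoint genes had CP190 at 28 of 31 and retained 7, with Det, Incenp, Mad1 and mad2 first in the alphabet. Incenp, a scaffold of the chromosomal passenger complex, had 12.4 and 10.2 in mock and 3.13 and 5.64 after dsCP190. Mad1, of the spindle checkpoint, had 18.5 and 10.1, then 5.68 and 12.4, and its groups overlapped. Cyclin, kinase and G1 regulator genes had CP190 at 25 of 27 and retained 10, with Caf1-55, Cdk12, Cks30A and Cul1 first. At Cul1, a scaffold of SCF ubiquitin ligases, the folds were 34.9 and 28.3 in mock and 10.3 and 18.7 after dsCP190. CLAMP was called in both mock libraries at 27 of the 89 genes (30.3%), against 22.3% of other genes, and 10 of the 27 were retained (37%), against 26.3% of other genes with CLAMP, while 6 were no longer called (22.2%), against 33.6%.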

How the data were processed

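ChIP-seq peak lists of 8 immunoprecipitations, 2 per antibody and treatment, were used, and the 4 inputs were not. Per the submitters' processing notes, which give no roles or order, the tools included MACS2 2.1.1.20160309, deepTools 3.0.2, Picard 2.18.9, cutadapt 1.16 and Bowtie2 2.3.4.1, with build dm6. For the peak calls, control and threshold were not given in the sources used here. The authors deposited for each peak a score, a fold enrichment (a ratio to local background), a −log10 p and a −log10 q. Lists were made per library. Folds are peak values of their own list and were set side by side, not tested as changes.

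Peaks on arms 2L, 2R, 3L, 3R, 4 and X were assigned to RefSeq genes of Release 6, which is dm6, in Python 3.11.15 with pandas 2.3.3, numpy 2.4.6 and scipy 1.17.1. Coordinates are 1-based. Summit fragments and background were solved from the deposited fold and −log10 p, assuming a pseudocount of 1, for peaks with a −log10 p under 250. In each list at least 99.985% of these peaks had a whole number of fragments that returned the deposited −log10 p within 0.001. The fold needed for a call used mock background times the median background ratio and the weakest p of the list. Overlap and recovery were tested on simulated data. No sequence was used, as no genome was given.

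The genes and lists were chosen with earlier results of these data known. All 35 genes may be named. Values per library are given for genes retained for CP190, genes with CLAMP in both mock libraries and the 5 strongest no longer called, and further values for other members were chosen after they were seen. Of further pathway genes, the first 4 retained per list are named. Orc4 and Top2, and the genes in the closing section, were named after their values were seen. Same-numbered mock and dsCP190 replicates are not said to share a culture.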

Additional observations from a re-analysis of the deposited data

How the results depend on the processing

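Most counts moved by less than 1.5 times. With every list at the length of the shortest of its antibody, CP190 was called in both mock libraries at 13 genes, against 20.9% of other genes. CLAMP was called at 7 of the 35 genes, against 6.96% of other genes, and both proteins at 5 of the 35, against 3.49%. For each antibody 0 genes were no longer called, against 2.52% of other genes for CP190 and 0.439% for CLAMP. With a −log10 q of at least 10, 17 of the 35 genes were no longer called for CP190, against 37.1% of all other genes. Among genes called in mock cells under that setting these shares were 51.5% and 64%. With 500 bp around gene ends, 2 of the 35 genes were retained and 4 no longer called for CLAMP, against 3.07% and 6.67% of all other genes. Of genes with CLAMP in mock cells under that setting, 14.3% were retained, against 18.3%, and 28.6% no longer called, against 39.7%. With the summit inside the window 1 of the 35 was no longer called for CLAMP, against 6.95% of all other genes. Among genes with CLAMP in mock cells under that setting these shares were 6.67% and 33.8%. Leaving out single libraries gave 14 to 23 retained and 10 to 19 no longer called for CP190, and 4 to 14 and 2 to 12 for CLAMP. Shares of other genes beside the highest of these counts are given above. The peak number ratio was 0.262 to 0.401 for CP190 and 0.201 to 0.549 for CLAMP. The cause of these shifts was not tested, except that a looser rule follows from leaving out a library. With a replicate block the peak number ratios were 0.332 and 0.375 with p = 0.5 in the exact permutation test, the lowest that 2 pairs allow. The counts stayed at 14 and 10 for CP190 and 4 and 2 for CLAMP, as the definitions imply. Replicate differences of mock and dsCP190 libraries correlated at -0.10 over 1661 CP190 regions and 0.013 over 801 CLAMP regions. A crossed replicate block, chosen after seeing the data, gave 14 and 10 for CP190. Weighting by strength was also chosen after seeing the data.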

Other observations

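Of 31 further replication factors, 4 had CLAMP peaks in all 4 libraries, Fen1, Gnf1, PolD1 and PolE1. They are 36.4% of those with CLAMP in both mock libraries, against 26.3% of other genes. PolE1, the catalytic subunit of DNA polymerase epsilon, had CLAMP folds of 13.2 and 11.3 in mock and 10.8 and 4.17 after dsCP190, while CP190 had 10.5 and 10.9 in mock and no peak after dsCP190. PolD1, the catalytic subunit of DNA polymerase delta, had CLAMP folds of 10.1 and 10.5, then 8.45 and 2.57, and CP190 of 7.14 and 5.48 in mock alone. At Fen1, the flap endonuclease of lagging-strand synthesis, CLAMP had 12.5 and 15.6, then 11.6 and 8.64, while CP190 had 4.81 and 4.46 in mock and 2.78 in dsCP190 replicate 1. CP190 was thus called after dsCP190 at Fen1 in 1 library and at Gnf1 in both, and at PolD1 and PolE1 in neither. Myc, a growth regulator, had CLAMP at 7.70 and 6.65, then 6.42 and 3.80, and was not called for CP190 in both mock libraries.

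The Rbf region described above also held a CLAMP region, with folds of 3.20 and 4.19 in mock and summits 81 bp apart.

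The E2f1 gene held 1 CP190 peak that no mock library had, inside the gene 12662 bp from its nearer end, with a fold of 2.71 in dsCP190 replicate 1 only. A CLAMP region with folds of 6.57 and 7.79 in mock and 6.25 in dsCP190 replicate 1 covers the same stretch.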
